A study of Mus musculus with 12 samples.

Results

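The 33 genes described here are those of cholesterol synthesis, its control, fatty acid synthesis and sterol transport in mouse pancreatic tumour organoids, taken by name from the 53715 gene identifiers quantified in 12 RNA-seq libraries. They fall into 18 genes of sterol synthesis, 5 of sterol sensing and SREBP control, 6 of fatty acid synthesis and 4 of sterol transport. Members were chosen with earlier results of these data known, so their calls are not an independent test. All 33 names were matched to a gene, and 32 had enough counts to be tested. The exception was Abca1, the sterol efflux pump, which was listed at 0 to 0.15 TPM (transcript abundance corrected for gene length and scaled to a fixed total per library). Against Spdef knockout, 3 of the 32 genes differed in the libraries labelled SPDEF vector as a mean of both lines, and all 3 were higher: Gramd1b, Acly and Scap. That count is near the background, since 7.77% of all genes tested passed there. Of the 18 sterol synthesis genes, 13 passed the test in none of the 9 comparisons between genotypes, or 7 when the replicate number was a block, and 9 were higher in the controls of one organoid line than in those of the other. Of all genes, 2.69% to 14.5% passed in a single comparison between genotypes, or 7.29% to 25.4% with the block. Between the control lines 28.2% did without it. The share of all genes that passed in any of the 9 comparisons was not counted, so the 13 and the 7 have no like background. A test was passed where the adjusted p, from edgeR's quasi-likelihood test with Benjamini-Hochberg adjustment over all genes tested, was under 0.05.

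Animal cells build cholesterol from acetyl-CoA through the mevalonate pathway, squalene and lanosterol. Fatty acids start from the same acetyl-CoA. In the cytosol it is made from citrate by ATP citrate lyase, the product of Acly. When sterol in the endoplasmic reticulum falls, Scap carries the SREBP proteins to the Golgi, where they are cleaved and go on to activate both sets of genes. Insig proteins hold Scap back when sterol is plentiful. Spdef is an ETS transcription factor known for secretory and mucin-producing epithelium.

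The organoids were epithelial cultures from tumours of C57/Bl6 mice carrying KrasLSLG12D/+, Trp53LSLR172H/LOH and Pdx1-Cre, alleles that all 6 groups share. Pdx1-Cre drives recombination in the pancreatic lineage. There were 2 lines, mT6 and mT69a, each grown in Matrigel. In both lines the control was a clone with Rosa26 knocked out, the knockout a clone with Spdef knocked out, and both carried an empty vector. The third group of each line was Spdef-knockout cells given a vector for SPDEF expression. Each genotype of a line is a clone, so a difference between clones and an effect of the edit cannot be told apart. Each group had 2 libraries, numbered replicate 1 and 2, and nothing in the labels says whether these came from separate cultures, so p-values measure the spread between these libraries only.

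Depth ran from 9094295 to 28903831 counts per library. The targeted gene Spdef had 30 and 29 counts in the mT6 controls and 0 and 2 in the mT6 knockouts. The mT69a controls had 2 and 4 counts of it, too few to check the knockout. It had 0 to 2 counts in all 4 libraries with the SPDEF vector, so this gene's counts do not bear out the label. The labels do not give the sequence in the vector, and one not counted as mouse Spdef would not show in these counts. Whether the vector was expressed thus cannot be told from them, and the libraries are called labelled SPDEF vector. All 8 ductal epithelial markers were measured, with a summed level of 2229 to 5093 TPM led by Krt19. None of 8 fibroblast markers and none of 5 endothelial markers passed the count filter (summed level up to 0.36 and 0.27 TPM), and of 7 immune markers only Cd68 did (summed level 2.13 to 14.5 TPM). Of 6 acinar markers only Bhlha15 passed, at a summed 0.08 to 1.5 TPM, and Cpa1, Cela2a and Ptf1a were at 0 in every library. Of 6 adipocyte markers Cidec and Pparg passed, while Adipoq, Plin1 and Lep were at 0 in every library. Their summed level moved with the groups, at 12.3 to 14.3 TPM in mT6 control, 18.4 to 21.2 in mT6 knockout and 8.57 to 8.59 in mT6 labelled SPDEF vector. In mT69a it was 42.3 to 49.5, 37.5 to 60.1 and 26.4 to 29.0 TPM in the same order, and its part in the results was not tested.

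Promoters of 4 members, chosen by name and not by their motifs, are shown from genes that did and did not move. Letters that SREBP and its partner factors are known to bind are marked in them. The RefSeq table (GRCm38.p6, 250 bases before to 50 after each start) held 25 of the 33 genes, with 33 promoters. The sterol regulatory element core, searched as TCACNCCAC on both strands, was found in 1 member gene, Hmgcs1, and in 1.24% of all 32851 promoters. The E-box CACGTG was in 21.2% of the members' promoters and 7.15% of all. The NF-Y box CCAAT was in 63.6% against 37.4%, and the GC box GGGCGG in 75.8% against 35.7%. CCGGAT, an ETS core of the SPDEF type added after the data were seen, was in 9.09% against 6.04%, in Hsd17b7, Pmvk and Srebf1. In the members' promoters no match of a motif overlapped a match of a different motif. In Fasn, matches of the NF-Y box at -62 to -58 and at -59 to -55 from the start overlapped each other. A match is a description of letters, not a bound site. Capitals mark the first 4 motifs on either strand. The windows are Hmgcs1 at chr13:119690101-119690400 on the plus strand, Insig1 at chr5:28071162-28071461 on the plus strand, Acly at chr11:100527951-100528250 on the minus strand and Acat2 at chr17:12960676-12960975 on the minus strand, each written 5′ to 3′ along its gene.
Hmgcs1: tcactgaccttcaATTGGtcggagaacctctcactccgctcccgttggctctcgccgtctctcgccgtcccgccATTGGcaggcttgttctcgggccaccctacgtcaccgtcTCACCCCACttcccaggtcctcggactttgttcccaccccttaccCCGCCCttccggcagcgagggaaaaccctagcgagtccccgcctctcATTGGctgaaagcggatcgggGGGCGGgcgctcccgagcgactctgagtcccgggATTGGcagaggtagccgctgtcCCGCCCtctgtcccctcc
Insig1: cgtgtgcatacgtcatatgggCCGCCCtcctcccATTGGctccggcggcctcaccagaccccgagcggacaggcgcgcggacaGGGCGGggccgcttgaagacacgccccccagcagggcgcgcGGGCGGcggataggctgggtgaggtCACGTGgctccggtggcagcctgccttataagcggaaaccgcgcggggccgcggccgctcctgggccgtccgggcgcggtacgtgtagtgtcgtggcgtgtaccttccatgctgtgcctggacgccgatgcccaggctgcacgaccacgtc
Acly: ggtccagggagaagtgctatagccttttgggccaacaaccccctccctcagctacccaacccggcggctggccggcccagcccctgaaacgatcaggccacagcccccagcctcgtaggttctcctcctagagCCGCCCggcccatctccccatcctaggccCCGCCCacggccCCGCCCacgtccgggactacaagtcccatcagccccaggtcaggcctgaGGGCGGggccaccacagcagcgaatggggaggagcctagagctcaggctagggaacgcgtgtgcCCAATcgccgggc
Acat2: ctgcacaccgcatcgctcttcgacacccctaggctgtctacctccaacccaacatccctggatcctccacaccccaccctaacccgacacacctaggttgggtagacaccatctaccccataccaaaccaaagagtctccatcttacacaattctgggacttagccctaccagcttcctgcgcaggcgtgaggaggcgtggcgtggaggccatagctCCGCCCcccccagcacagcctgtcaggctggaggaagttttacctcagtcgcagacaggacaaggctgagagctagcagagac
The Hmgcs1 window holds the sterol element with NF-Y boxes on both sides of it and GC boxes after it, the Insig1 window an E-box, an NF-Y box and GC boxes, the Acly window GC boxes and an NF-Y box, and the Acat2 window a GC box alone.

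Levels differed widely among the members on the TPM scale. Scd2, a stearoyl-CoA desaturase that makes monounsaturated fatty acids, was the most abundant at 600.2 to 1041 TPM over the 12 libraries. Next by level came Fdps, which makes farnesyl diphosphate, at 131 to 336 TPM, and Msmo1, a C4-methyl sterol oxidase, at 156 to 219 TPM. Their ranges overlap, so their order is not settled. The sterol synthesis genes together summed to 999.8 TPM in the lowest library, mT6 labelled SPDEF vector replicate 1, and to 1827 TPM in the highest, mT69a knockout replicate 1. The fatty acid genes summed to 852 to 1274 TPM, and the sterol transport genes to 32.1 to 78.0 TPM. Srebf1, which encodes SREBP-1, was at 23.2 to 35.3 TPM and Srebf2, which encodes SREBP-2, at 25.9 to 45.2 TPM. The most abundant of the Srebf1 transcripts, Srebf1-201, held 28.6% to 58.3% of the gene in a library.

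**Figure D1:**
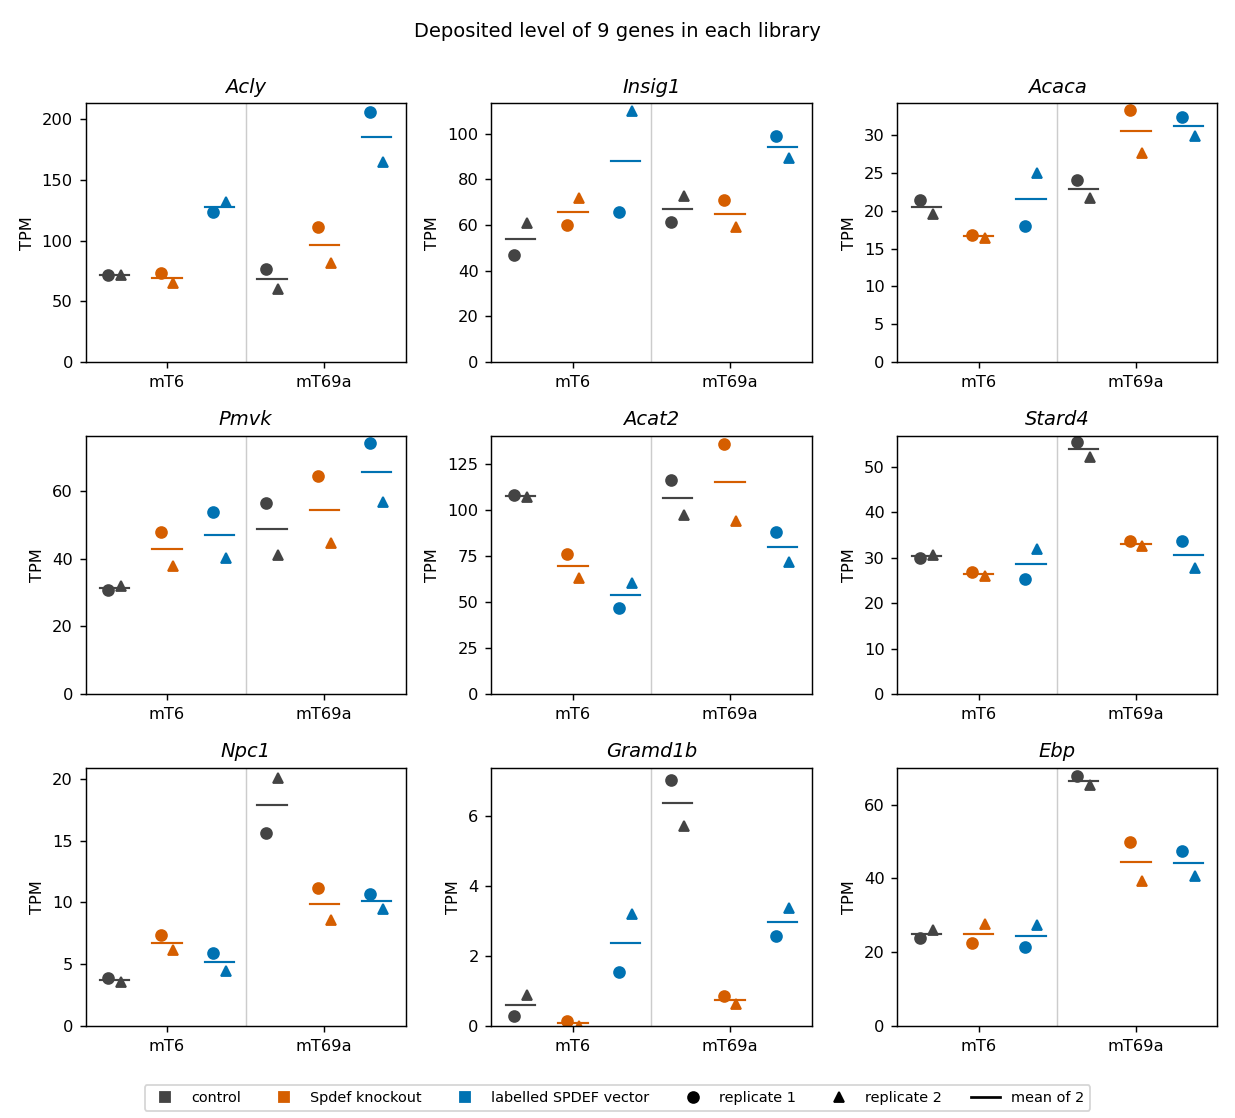
Deposited level in TPM (vertical axes, each from 0) of 9 genes in the 6 groups of 2 libraries, with replicate 1 as circles, replicate 2 as triangles and the mean as a line. Acly was higher in all 4 libraries labelled SPDEF vector than in the other 8, and Gramd1b was lower in the knockout than in both other groups of its line.

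The knockout was set against the Rosa26 control, though in mT69a the counts of Spdef were too few to check the knockout. As a mean of both lines, 3 of 32 members passed the test, all lower: Gramd1b, Stard4 and Tm7sf2. Among all 14473 genes tested 5.6% passed, so 3 of 32 is not far from the background. With the replicate number as a block the count was 7, of which 2 were higher and 5 lower, where 15% of all genes passed. The 18 sterol synthesis genes had a median log2 fold change of -0.03 and the 6 fatty acid genes one of 0.13, against -0.0034 for all genes. None of the 5 sensing genes and none of the fatty acid genes passed, with or without the block, and 0 and 1 had an unadjusted p under 0.05 in edgeR without it.

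Gramd1b, which encodes a protein that moves cholesterol from the plasma membrane to the endoplasmic reticulum, had the largest change. It had 18 and 101 counts in the mT6 controls and 3 and 1 in the mT6 knockouts. Counts in mT69a were 407 and 393 for controls and 57 and 17 for knockouts. The groups did not overlap in either line, and the mT69a controls lay far above those of mT6. Scaled for library size, the control to knockout ratio of summed counts was 22.9 in mT6 (95% exact interval 8.71 to 85.3) and 10.5 in mT69a (8.31 to 13.6), intervals that cover counting error only. In replicates 1 and 2 the ratio was 5.17 and 73.3 in mT6 and 8.3 and 17.9 in mT69a, a spread that those intervals do not cover. The fitted log2 fold change, which rests in mT6 on those few counts, was -3.86 (SE 0.42, adjusted p = 0.000702) as a mean of both lines, -4.27 in mT6 (adjusted p = 0.0167) and -3.46 in mT69a (adjusted p = 0.00117). The mT6 value lost its call without mT6 knockout replicate 1, mT6 knockout replicate 2 or mT6 control replicate 2, at an adjusted p of up to 0.164, while the other values kept theirs in all 12 fits that left out 1 library. In limma fits of log2 TPM the mT6 call was lost (up to 0.731) and the others held, at values as small as -1.31 for the mean and -2.08 in mT69a. Gramd1b overlaps 3 genes on the opposite strand and 3 on its own strand (Gm48114, Gm48127 and Gm48129), and whether the counting used strand is not given in the sources used here.

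Stard4, a soluble carrier of cholesterol between membranes, was at 55.4 and 52.3 TPM in the mT69a controls and 33.6 and 32.6 TPM in the mT69a knockouts. In mT6 it was at 30.0 and 30.7 TPM in the controls and 26.9 and 25.9 TPM in the knockouts. The log2 fold change of Stard4 was -0.50 over both lines (SE 0.13, adjusted p = 0.0445) and -0.77 in mT69a (SE 0.18, adjusted p = 0.0234). Tm7sf2, a sterol C14 reductase, fell over both lines by 0.39 in log2 units (SE 0.09, adjusted p = 0.0369). Each of these averaged calls was lost in 10 of the 12 fits that left out 1 library, that is in every such fit except those without mT6 labelled SPDEF vector replicate 1 or replicate 2, with adjusted p of up to 0.184 for Stard4 and 0.144 for Tm7sf2. The mT69a call for Stard4 was lost without any 1 of the 4 mT69a control and knockout libraries (up to 0.197). All 3 calls were lost in limma fits of log2 TPM, at up to 0.256 and 0.156 for Stard4 and 0.712 for Tm7sf2, and held with the block. Over both lines the median of all tested genes was -0.21 for chromosome 18, which holds Stard4, and -0.13 for chromosome 19, which holds Tm7sf2. In mT69a it was -0.49 for chromosome 18. The part of these medians in the 3 calls was not tested. Of the transcript windows of Tm7sf2, 9.87% also occur in Vps51, which overlaps it on the same strand.

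Within the lines, 3 members passed in mT6 (3.23% of all genes, or 6 members and 12.5% with the block) and 3 in mT69a (8.6%, or 7 members and 16%). In mT6 these were Gramd1b and Acat2, lower, and Npc1, higher. Acat2 had -0.64 (SE 0.14, adjusted p = 0.0353) and lost its call in 10 of the 12 fits, all except those without an mT6 library labelled SPDEF vector (up to 0.183). In mT69a they were Gramd1b, Stard4 and Npc1, all lower. Npc1, the lysosomal exporter of cholesterol, thus went opposite ways. It was at 3.91 and 3.61 TPM in mT6 controls and 7.34 and 6.12 TPM in mT6 knockouts. In mT69a it was at 15.6 and 20.1 TPM in controls and 11.2 and 8.59 TPM in knockouts. Its log2 fold change was 0.90 in mT6 (SE 0.20, adjusted p = 0.0363) and -0.9995 in mT69a (SE 0.19, adjusted p = 0.00868), and the groups did not overlap in either line. The mT6 call was lost without mT6 control, mT6 knockout, mT69a knockout or mT69a labelled SPDEF vector libraries of either number (8 of 12 fits, adjusted p of up to 0.168), and the mT69a call without mT69a knockout replicate 1 or 2 or mT69a control replicate 2 (up to 0.082). In limma fits of log2 TPM both were lost (up to 0.39 and 0.173), as was the call for Acat2 (up to 0.611). The difference between the lines itself passed, at -1.90 (SE 0.27, adjusted p = 0.00272), in all 12 such fits, and was lost on log2(TPM + 1) with no filter (0.0806). It was the only 1 of 32 members to do so, where 6.62% of all genes passed, and 5 members and 15.2% of all genes passed with the block.

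**Figure D2:**
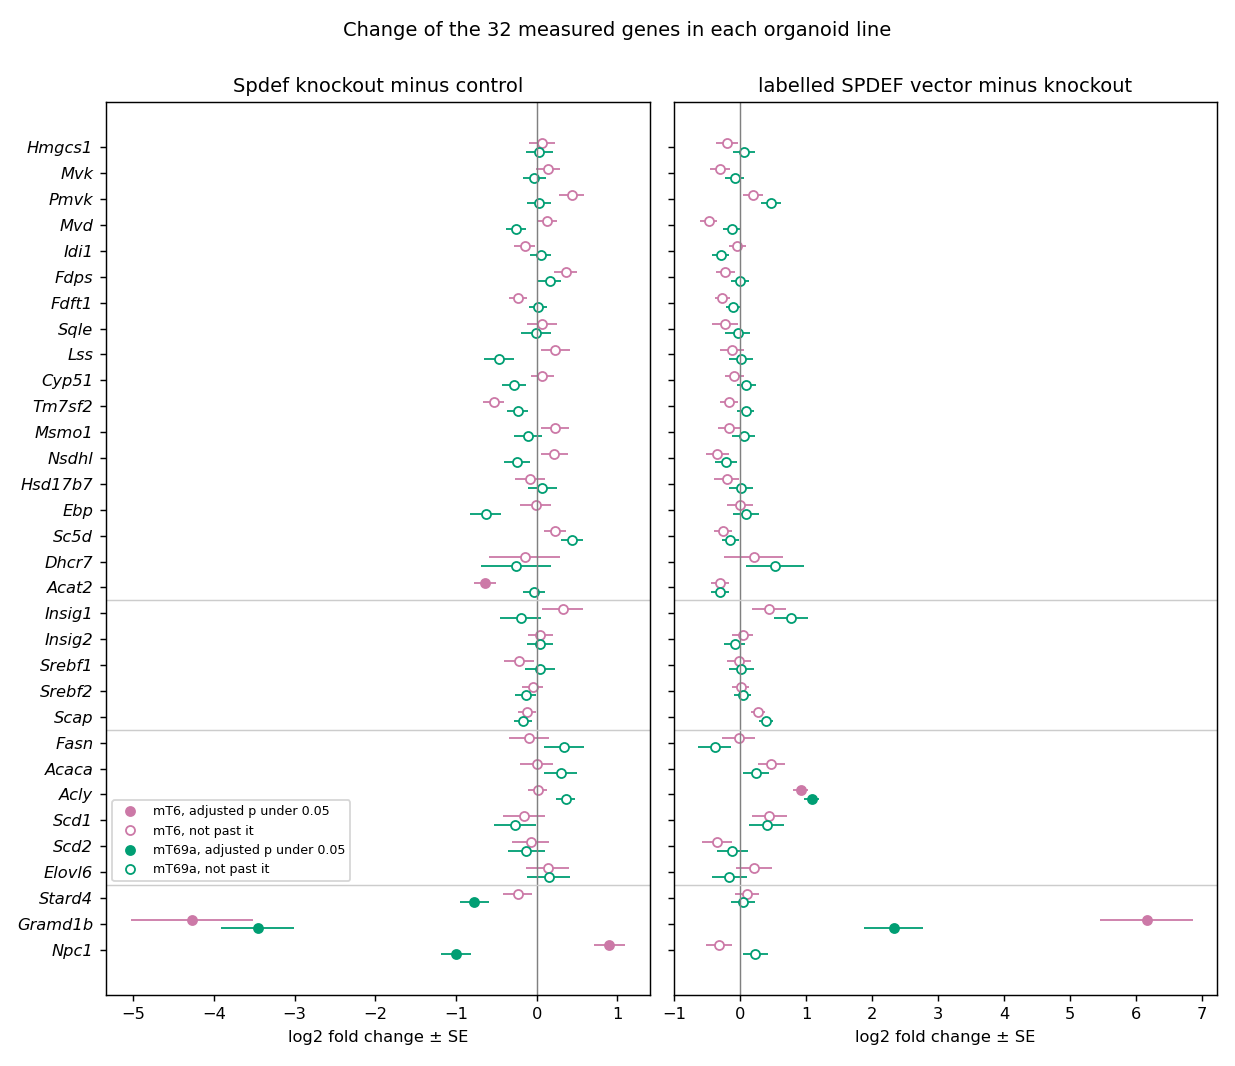
Log2 fold change with its standard error (horizontal axes) of the 32 measured genes in mT6 and mT69a, for knockout minus control and for labelled SPDEF vector minus knockout, from edgeR fits on 2 libraries a group. Filled points passed an adjusted p of 0.05, and lines across separate sterol synthesis, sensing, fatty acid synthesis and transport genes; Gramd1b and Acly were past it in both lines on the right.

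The libraries labelled SPDEF vector were next set against the knockout, though whether the vector was expressed could not be told from the counts. As a mean of both lines, 3 of 32 members passed, all higher: Gramd1b, Acly and Scap (7.77% of all genes passed). With the block 11 passed, 7 higher and 4 lower, where 15.8% of all genes did. None of the 18 sterol synthesis genes passed in edgeR without the block (5 at an unadjusted p under 0.05) and 4 did with it, 1 higher and 3 lower, and 15 of them had a negative sign, with a median log2 fold change of -0.11 against -0.02 for all genes.

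Acly, the source of cytosolic acetyl-CoA for both pathways, rose by the most among the synthesis genes. In mT6 it was at 72.9 and 64.9 TPM in the knockouts and 124 and 132 TPM in the libraries labelled SPDEF vector. In mT69a it was at 111 and 81.8 TPM in the knockouts and 206 and 165 TPM in the libraries labelled SPDEF vector. The groups did not overlap in either line, and the 4 control libraries, at 60.1 to 76.5 TPM, lay below all 4 labelled SPDEF vector libraries as well. The log2 fold change was 0.9989 (SE 0.08, adjusted p = 5.77e-05), with 0.92 in mT6 (SE 0.12, adjusted p = 0.00257) and 1.08 in mT69a (SE 0.12, adjusted p = 0.000626). These calls held in all 12 fits that left out 1 library. In limma fits of log2 TPM the averaged call held (adjusted p of up to 0.0288), while those of mT6 and mT69a were lost (up to 0.217 and 0.151) at values of at least 0.8837 and 0.9405. No transcript window of Acly of 50 bases is shared with another gene, and its 49 tested neighbours within 1000000 bases had a median of -0.07 in mT6 and -0.10 in mT69a when the libraries labelled SPDEF vector were set against control. Acly had not fallen in the knockout against control. In mT6 the controls were at 71.3 and 71.6 TPM, between the knockout libraries. In mT69a they were at 76.5 and 60.1 TPM, below both knockout libraries. No fatty acid gene passed that comparison within a line without the block, and 1 did with it, higher in mT69a.

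Gramd1b had 65 and 102 counts in the mT6 libraries labelled SPDEF vector and 183 and 143 counts in those of mT69a. Set against the knockout, the ratio of scaled counts was 77.3 in mT6 (95% exact interval 29.6 to 287) and 4.75 in mT69a (3.68 to 6.2). In replicates 1 and 2 it was 28.6 and 243 in mT6 and 3.54 and 8.72 in mT69a, a spread that those intervals of pooled counts do not cover. The fitted log2 fold change was 4.24 over both lines (SE 0.42, adjusted p = 0.000203), 6.16 in mT6 (adjusted p = 0.0017) and 2.33 in mT69a (adjusted p = 0.0172). The mT69a call was lost without mT69a knockout replicate 2 or without either mT69a library labelled SPDEF vector, at an adjusted p of up to 0.129, and in limma fits of log2 TPM (up to 0.173). There the averaged value held at 1.39 or more, and the mT6 call was lost with no filter (0.0588). The knockout libraries enter both this comparison and the one with control, so its fall and its rise are not independent.

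Scap, the SREBP escort protein, was at 69.9 and 66.5 CPM (counts scaled to a fixed library total with TMM factors) in the mT6 knockouts and 81.2 and 82.7 CPM in the mT6 libraries labelled SPDEF vector. The same groups of mT69a had 65.3 and 64.0 CPM and 87.3 and 81.7 CPM. The groups did not overlap on that scale. Scap had a log2 fold change of 0.33 (SE 0.08, adjusted p = 0.0289), and the call was lost without any 1 of the 8 knockout and labelled SPDEF vector libraries, at an adjusted p of up to 0.142, and with no count filter (0.163). In the 3 limma fits of log2 TPM its value fell to as little as 0.1668 (adjusted p of up to 0.775), and on the TPM scale its groups overlapped in both lines, at 23.3 and 17.2 TPM in mT6 knockouts and 22.3 and 22.1 TPM in mT6 labelled SPDEF vector. Insig1, a target as well as a brake of SREBP, had a log2 fold change of 0.61 that missed the threshold (SE 0.18, adjusted p = 0.0746) and passed with the block (0.00111). Acaca, acetyl-CoA carboxylase, had 0.35 and passed with the block alone (adjusted p = 0.202 without it and 0.0133 with it).

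Each line gave the same 2 called members, Acly and Gramd1b, both higher. In mT6 2.69% of all genes passed, and 5 members and 7.29% of all genes did with the block. In mT69a 4.25% of all genes passed, and 5 members and 10.6% did with the block. The change in mT69a minus that in mT6 passed for none of the 32 members in edgeR's test, with 1 at an unadjusted p under 0.05, 1 in DESeq2 and 1 with no count filter, where 0.0138% of all genes passed.

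Against control, the libraries labelled SPDEF vector differed in 9 of 32 members as a mean of both lines, 4 higher and 5 lower, where 14.5% of all genes passed. With the block 13 passed, 4 higher and 9 lower, against 25.4%. These libraries share the clones of the knockout, so this comparison holds the clone as well as the vector. The 4 higher were Acly, Insig1, Pmvk and Acaca, and the 5 lower were Acat2, Stard4, Tm7sf2, Mvd and Fdft1. Acly was 2.27-fold higher, a log2 value of 1.19 (SE 0.08, adjusted p = 1.27e-05), and its call held in all 12 fits that left out 1 library. Of the 18 sterol synthesis genes 1 rose and 4 fell, with a median log2 fold change of -0.12, and of the 6 fatty acid genes 2 rose and none fell. With the block these were 1 and 7, and 2 and 1.

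Pmvk, phosphomevalonate kinase, was at 30.8 and 31.9 TPM in the mT6 controls and 53.6 and 40.2 TPM in the mT6 libraries labelled SPDEF vector. The same groups in mT69a were at 56.4 and 41.0 TPM and at 74.2 and 56.7 TPM. The groups did not overlap in mT6 and lay just apart in mT69a. Its log2 fold change was 0.56 (SE 0.11, adjusted p = 0.0061) and held in all 12 such fits, but not in limma fits of log2 TPM (up to 0.327). Insig1 was at 46.7 and 60.8 TPM in the mT6 controls and 65.7 and 110 TPM in the mT6 libraries labelled SPDEF vector. In mT69a it was at 61.5 and 72.6 TPM and at 98.9 and 89.6 TPM, again without overlap. Its log2 fold change was 0.67 (SE 0.18, adjusted p = 0.034), lost in 5 of the 12 fits at an adjusted p of up to 0.117, those without mT6 control replicate 1, mT69a control replicate 1, mT6 labelled SPDEF vector replicate 2 or either mT69a library labelled SPDEF vector. Acaca had 0.50 (SE 0.14, adjusted p = 0.0425). Its call was lost in 7 of the 12 (up to 0.136), those without replicate 1 of mT6 control or mT6 knockout, replicate 2 of mT6 labelled SPDEF vector, or either mT69a control or mT69a labelled SPDEF vector library, and in the 3 limma fits of log2 TPM (up to 0.588), where its value fell to as little as 0.2393, and 30.4% of its transcript windows also occur in other genes, chiefly Gm5182.

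Acat2, the cytosolic acetyl-CoA acetyltransferase that opens the mevalonate pathway, was at 108 and 107 TPM in the mT6 controls, 75.8 and 62.9 TPM in the mT6 knockouts and 47.0 and 60.4 TPM in the mT6 libraries labelled SPDEF vector. In mT69a it was at 116 and 97.2 TPM in the controls and 88.1 and 71.6 TPM in the libraries labelled SPDEF vector. All 4 libraries labelled SPDEF vector thus lay below the controls of their line. Its log2 fold change was -0.65 (SE 0.10, adjusted p = 0.00164) over both lines and -0.95 in mT6 (SE 0.14, adjusted p = 0.00261), and both calls held in all 12 fits. In limma fits of log2 TPM the mT6 call was lost (up to 0.115), and the averaged one with no filter alone (0.0848). Of its transcript windows 39.1% also occur in the family member Acat3, so how reads were split between them is uncertain. The other averaged falls were of 0.37 for Mvd, mevalonate diphosphate decarboxylase, 0.30 for Fdft1, squalene synthase, 0.43 for Tm7sf2 and 0.43 for Stard4 on the log2 scale, with adjusted p of 0.0219, 0.0311, 0.0119 and 0.0449. Mvd lost its call without either mT6 control, mT6 labelled SPDEF vector replicate 1, mT69a control replicate 1 or mT69a labelled SPDEF vector replicate 2 (adjusted p of up to 0.11), and Tm7sf2 without mT69a labelled SPDEF vector replicate 1 or mT69a control replicate 2 (up to 0.0642). Fdft1 kept its call only without mT6 control replicate 1 or mT6 labelled SPDEF vector replicate 2 (otherwise up to 0.129), and Stard4 only without the latter (otherwise up to 0.163). These 4 calls, and that for Insig1, were also lost in limma fits of log2 TPM (up to 0.433).

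By line, 6 members passed in mT6 (8.6% of all genes, or 10 members and 19% with the block). Pmvk, Acly and Gramd1b were higher and Fdft1, Tm7sf2 and Acat2 lower. In mT69a 3 passed (12.4%, or 11 members and 22.5% with the block), with Acly higher and Stard4 and Npc1 lower. The calls for Acly in both lines and for Acat2 in mT6 held in all 12 fits that left out 1 library, and the other 6 were lost in 2 to 7 of them. In all 6 of those a library labelled SPDEF vector, of the same line, was among the libraries that decided the call, as were mT6 control replicate 2 for Tm7sf2, Fdft1 and Pmvk and mT69a control replicate 2 for Stard4 and Npc1. In limma fits of log2 TPM all 6 mT6 calls and that for Npc1 in mT69a were lost, and that for Stard4 with no filter (0.07). The lines differed in this contrast for 2 members, Gramd1b and Npc1, where 6.03% of all genes did so (7 members and 14.4% with the block). Gramd1b was 3.38-fold its control level in the mT6 libraries labelled SPDEF vector (95% exact interval 2.66 to 4.31) and 0.45-fold in those of mT69a (0.394 to 0.512), by scaled counts. In replicates 1 and 2 the ratio was 5.54 and 3.32 in mT6 and 0.427 and 0.487 in mT69a. The fitted values were 1.89 in mT6 and -1.13 in mT69a on the log2 scale, and the second missed the threshold (adjusted p = 0.0982).

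Against control, all 5 lower calls in the libraries labelled SPDEF vector of a single line lay on chromosomes whose genes were lower as a whole in that line. In mT6, libraries labelled SPDEF vector against control, the median log2 fold change was -0.49 over the 691 tested genes of chromosome 17, which holds Acat2, -0.36 over the 506 of chromosome 14, which holds Fdft1, and -0.30 over the 481 of chromosome 19, which holds Tm7sf2. Less that median, Acat2 had a log2 difference of -0.46, Tm7sf2 one of -0.41 and Fdft1 one of -0.15. In mT69a the median was -0.51 over the 341 genes of chromosome 18, which holds both Stard4 and Npc1. Less that median, Npc1 had -0.26 and Stard4 -0.22. The same shifts stood in the knockout against control. In mT6 they were -0.44 for chromosome 17, -0.37 for chromosome 14 and -0.29 for chromosome 19, and in mT69a -0.49 for chromosome 18. Against the knockout, the libraries labelled SPDEF vector had medians between -0.07 and 0.06 for chromosomes 1, 8, 14, 17, 18 and 19 in each line. Acly, on chromosome 11, had a chromosome median of 0.05 in mT6 and -0.01 in mT69a against control. The part of these shifts in the changes of the members was not tested.

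**Figure D3:**
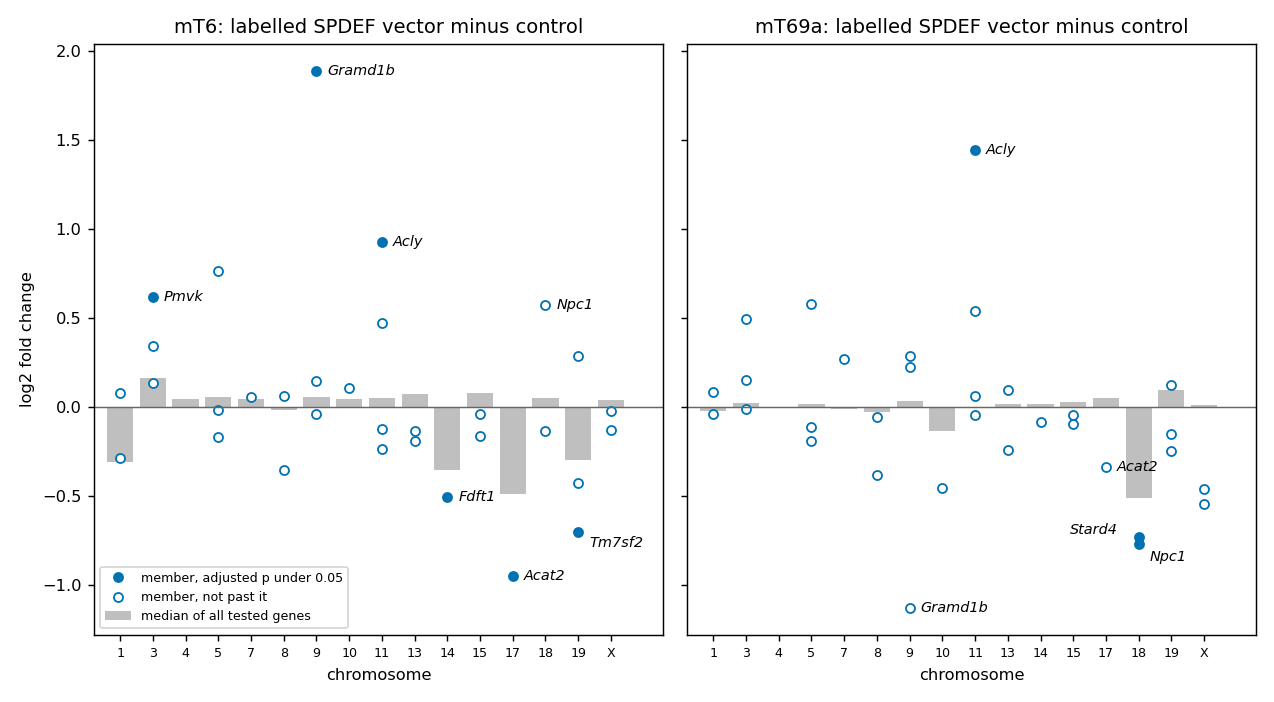
Log2 fold change of labelled SPDEF vector minus control (vertical axis) by chromosome (horizontal axis) in each line, with bars for the median of all tested genes of the chromosomes that hold members and points for the members themselves, filled where the adjusted p was under 0.05. The lower called members Acat2, Fdft1 and Tm7sf2 in mT6 and Stard4 and Npc1 in mT69a lie beyond the ends of bars that reach -0.30 to -0.51.

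The controls of the lines differed in more of these genes than any pair of genotypes did, and the same held for all genes tested. In mT69a against mT6, 13 of 32 members passed, 12 higher and 1 lower, where 28.2% of all genes passed in either direction. With the block 21 passed, 19 higher and 2 lower, against 41.8%. Of the 18 sterol synthesis genes 9 were higher and none lower, with a median log2 fold change of 0.49 against -0.03 for all genes. The 9 were Mvk, Pmvk, Mvd, Idi1 and Fdps of the mevalonate and isoprenoid steps and Lss, Cyp51, Nsdhl and Ebp of the steps from squalene epoxide onward. Other genes share 17.7% of the transcript windows of Idi1 and 26.2% of those of Fdps, so how their reads were split is uncertain. All 3 measured transport genes were higher, and of the 6 fatty acid genes none passed in edgeR, with 0 at an unadjusted p under 0.05. With the block 11 sterol synthesis genes were higher, and 4 fatty acid genes passed, 3 higher and 1 lower.

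Ebp, the sterol isomerase, was at 23.8 and 25.9 TPM in the mT6 controls and 67.7 and 65.3 TPM in the mT69a controls. Over all groups its level was 21.5 to 27.6 TPM in the 6 mT6 libraries and 39.2 to 67.7 TPM in the 6 of mT69a, without overlap. Its log2 fold change between the controls was 1.38 (SE 0.19, adjusted p = 0.000625). Cyp51, lanosterol demethylase, was at 63.1 and 61.9 TPM against 118 and 114 TPM, a log2 fold change of 0.90 (SE 0.15, adjusted p = 0.00147). Lss, which closes the sterol rings, had 0.88 (adjusted p = 0.00529) and Mvk, mevalonate kinase, 0.86 (adjusted p = 0.00177). Calls for these 4 held in all 12 fits that left out 1 library, though on log2(TPM + 1) with no filter those for Cyp51, Lss and Mvk were lost (0.0504, 0.0562 and 0.0913). Those for Pmvk, Mvd, Idi1, Fdps and Nsdhl were lost in 2, 3, 2, 2 and 7 of them, in each of these 5 genes without mT69a control replicate 1, for Pmvk, Mvd and Nsdhl also without mT6 control replicate 1, and for Mvd, Idi1, Fdps and Nsdhl also without mT6 control replicate 2 (adjusted p of up to 0.189). These 5 calls were lost in limma fits of log2 TPM as well (up to 0.519).

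Insig2, a partner of Insig1 in holding Scap, was the 1 member lower in mT69a, at 22.2 and 19.3 TPM in the mT6 controls and 13.0 and 12.5 TPM in those of mT69a. The log2 fold change of Insig2 was -1.01 (SE 0.16, adjusted p = 0.00121), lost in limma fits of log2 TPM (up to 0.364, at values as small as -0.66), while the median of its chromosome 1 was -0.35. Gramd1b was at 0.3 and 0.9 TPM in mT6 and 7.03 and 5.71 TPM in mT69a, a log2 fold change of 3.30 (SE 0.44, adjusted p = 0.000515). Npc1 had 2.35 (SE 0.20, adjusted p = 2.41e-05) and Stard4 0.75 (SE 0.18, adjusted p = 0.0108), both beside a median of 0.55 for chromosome 18. The call for Stard4 was lost without mT6 control replicate 1 (adjusted p = 0.0673). Mvd was higher by 0.43 although its chromosome 8 had a median of -0.34. Each line has 1 control clone, so line and clone cannot be told apart.

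**Figure D4:**
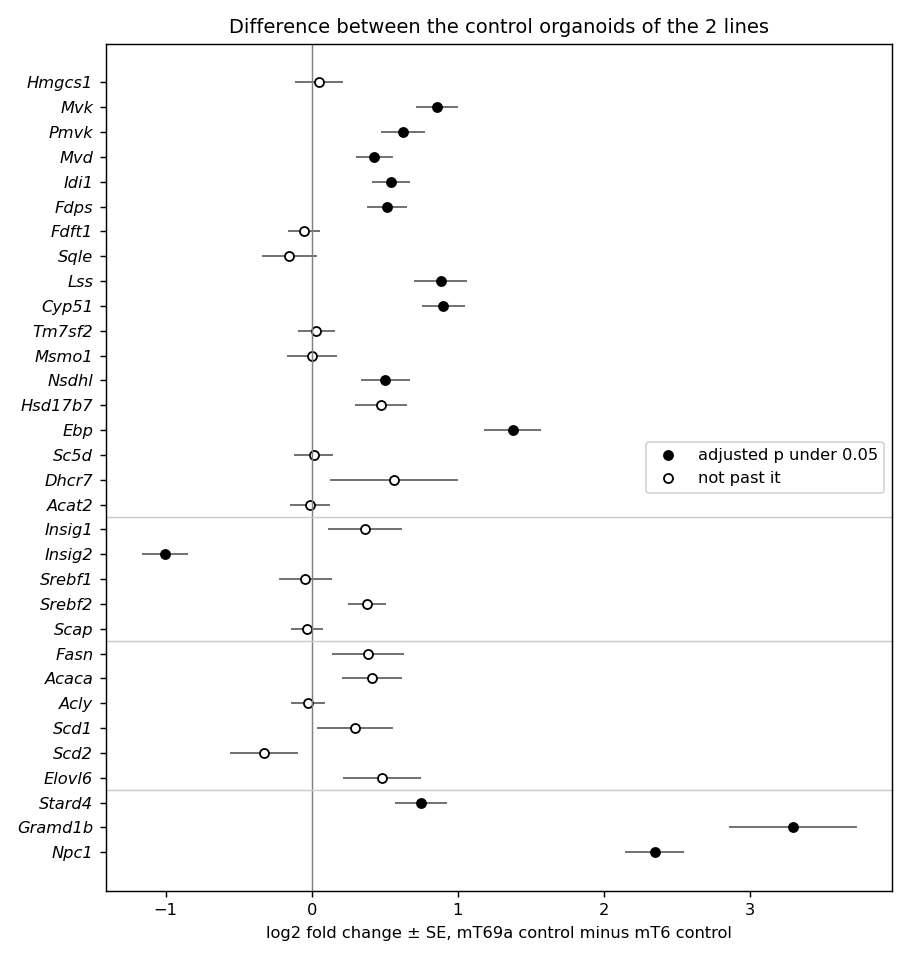
Log2 fold change with its standard error (horizontal axis) of the 32 measured genes between the control organoids, mT69a minus mT6, 2 libraries each, with filled points where the adjusted p was under 0.05. Filled sterol synthesis genes lie between 0.43 and 1.38, and Insig2 lies at -1.01.

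The 2 libraries of a group differed by replicate number in the same way in many groups. Replicate 2 minus replicate 1, fitted over the 6 groups, passed for 16 of 32 members, 15 higher and 1 lower, where 26% of all genes passed. Fatty acid genes made up 5 of the 15, all except Acly, with a median log2 difference of 0.35 over the list against -0.02 for all genes. Elovl6, a fatty acid elongase, had 0.41 (SE 0.07, adjusted p = 0.00295), Fasn, fatty acid synthase, 0.38 (SE 0.07, adjusted p = 0.00311), and both were higher in replicate 2 in 6 of 6 groups. Dhcr7, the last enzyme of cholesterol synthesis, had the largest value at 0.67 (SE 0.11, adjusted p = 0.0029), also higher in 6 of 6 groups. Insig1 had 0.37 and Scd2 0.34, each higher in 6 of 6 groups. Acly had 0.01 and was higher in 3 of 6 groups, and Fdps was the 1 lower call, at -0.17 in 6 of 6 groups.

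Mitochondrially encoded genes took 12.7% to 15.5% of counts in replicate 1 and 18.6% to 27.1% in replicate 2, and their part in the replicate difference was not tested. The direction depends on the scale for some genes: on log2(TPM + 1) the median of all genes itself moved to -0.21, with 260 genes higher and 4831 lower in place of 1821 and 1948, and Hmgcs1, Nsdhl, Acaca and Stard4 turned to values between -0.0371 and -0.0003. Relative to that median they stayed above it. On that scale 5 of the 32 members passed, with Dhcr7 higher and Fdps lower among them. The count of 16 fell to 7 without mT6 knockout replicate 1 and to 9 without mT6 knockout replicate 2 or either mT6 control.

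**Figure D5:**
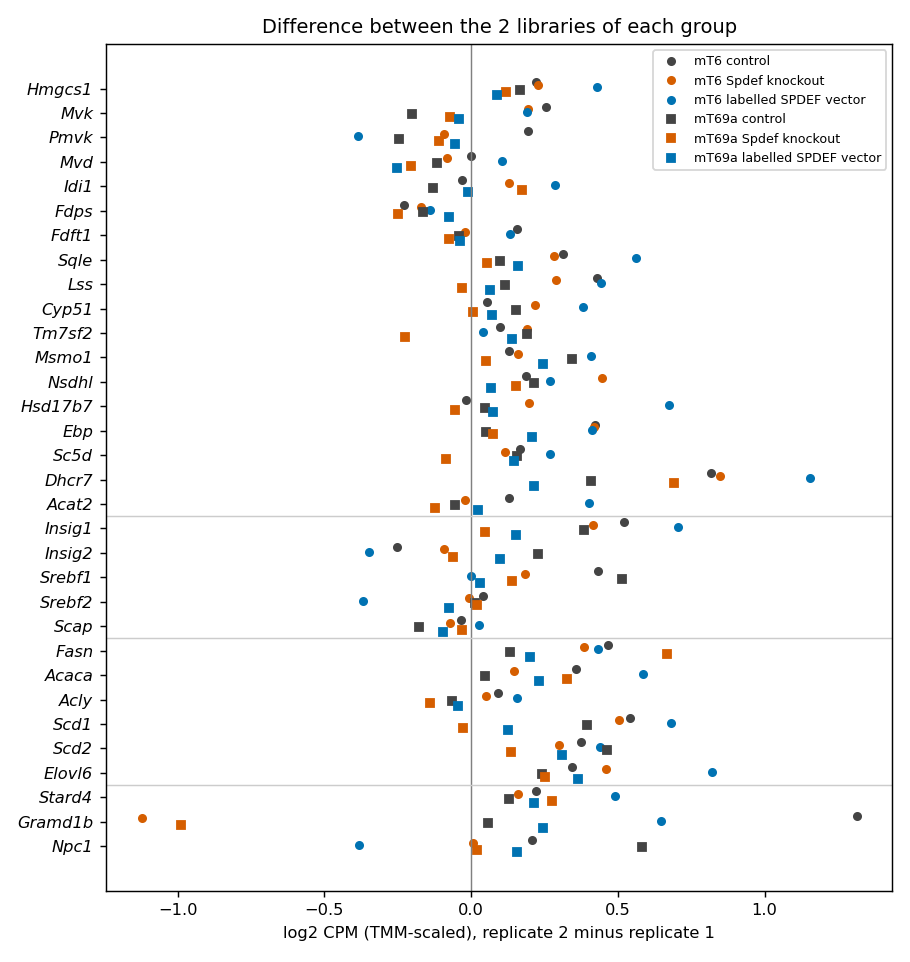
Difference in log2 CPM between replicate 2 and replicate 1 (horizontal axis) for the 32 measured genes, with 1 point for each of the 6 groups, circles for mT6 and squares for mT69a. Fasn, Acaca, Scd2 and Elovl6 lie above 0 in all 6 groups, and Fdps lies below 0 in all 6.

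Around the members, 86 other genes of sterol and lipid metabolism were listed, of which 81 were measured. Apart from the block, their calls were not put through the alternatives used for the members, such as leaving out 1 library. They were not set beside the median of their chromosome either. In the knockout 5 rose and 2 fell, in the libraries labelled SPDEF vector against knockout 7 rose and 6 fell, and against control 12 rose and 10 fell. With the block these were 8 and 7, 10 and 11, and 15 and 20. Of all genes, 5.6%, 7.77% and 14.5% passed in these comparisons, and 15%, 15.8% and 25.4% with the block. Soat1, which esterifies cholesterol for storage, fell by 1.09 in log2 units in the knockout (SE 0.13, adjusted p = 0.000702). In the same comparison Fads3 of the fatty acid desaturase family fell by 0.93, Rxra, the partner of the liver X receptors, rose by 0.74, and Acsl4, an acyl-CoA synthetase, rose by 0.60.

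Dgat2, which makes triglyceride, fell by 1.66 in log2 units in the libraries labelled SPDEF vector against knockout (SE 0.16, adjusted p = 0.000114), and Lipa, lysosomal acid lipase, fell by 0.97. Gramd1a, a relative of Gramd1b with the same kind of sterol transfer, rose by 0.85 against knockout (adjusted p = 0.00827) and by 1.45 against control (SE 0.17, adjusted p = 0.000281). Aacs, acetoacetyl-CoA synthetase, rose by 0.34 against knockout and 0.57 against control, and Ggps1, geranylgeranyl diphosphate synthase, by 0.50 and 0.60. Fads1, a fatty acid desaturase, and Stard5, a sterol carrier, fell against control by 1.33 and 1.26. Of the 10 genes for SREBP processing and sterol-regulated degradation 1 passed in these 3 comparisons, Rnf145, which fell against control by 0.42 (adjusted p = 0.0175).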

How the data were processed

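The 12 libraries were prepared from DNase-treated total RNA by the TruSeq Stranded Total RNA method, which keeps strand, per the labels' protocols. Reads were handled with FastQC 0.11.8, STAR 2.5.2b and RSEM 1.3.0 on GRCm38.p6, per the submitters' processing notes, and the strand setting and annotation are not given in the sources used here. The authors deposited expected counts, TPM and the percent of a gene held by each transcript. Between 8.08% and 11.3% of deposited expected counts were not whole within 0.005, and all were rounded. Identifiers were named by GENCODE M21 (53620 of 53715).

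Counts of all 12 libraries were fitted in edgeR 4.0.16 (robust quasi-likelihood, 6 group means, 6 residual degrees of freedom, TMM, filterByExpr by group, 14473 genes), with two-sided Benjamini-Hochberg adjusted p and a threshold of 0.05. Comparisons are contrasts of that fit, fold changes are relative to TMM scaling, and intervals cover counting error only. The script was tested on simulated data. Replicate differences in 15 pairs of groups correlated at r = 0.205 to 0.531 across genes, so the numbers pair the libraries. A fit with the replicate number as a block is given beside each count of calls it moves, and the replicate difference is from that fit. All other SEs, adjusted p and left-out-library fits are from the fit without the block, which ignores the pairing, except where the block is named. The part of the ignored pairing in calls that were lost was not tested. Other alternatives used DESeq2 1.42.0, RLE scaling, no count filter, a filter of 10 counts in 4 libraries, no mitochondrial genes, limma 3.58.1 on log2(TPM + 1) and log2(TPM + 0.1) for genes with a TPM of 1 in 2 libraries or without that filter, and each library left out. Tables and plots were made with pandas 2.3.3, matplotlib 3.10.9 and numpy 2.4.6 in Python 3.11.15, and models in R 4.3.3.

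The members and lists were chosen with earlier results of these data known. Named are all members, Spdef and, of each other list, up to 3 genes with the smallest adjusted p per averaged comparison, of which examples are given and 1 is not reported here. Shared transcript windows are of 50 bases.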

Additional observations from a re-analysis of the deposited data

Results flagged for a closer look

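The difference between genotype groups was not the same in the 2 lines for 2 transport genes, by the test of the difference itself in edgeR. Clone and edit cannot be told apart here. For Npc1 the change from control to knockout in mT69a minus that in mT6 was -1.90 on the log2 scale (adjusted p = 0.00272), and it held in all 12 fits that left out 1 library but not on log2(TPM + 1) with no filter (0.0806). The same difference for libraries labelled SPDEF vector against control was -1.34 for Npc1 (SE 0.27, adjusted p = 0.0176). It was lost without mT6 control replicate 1, mT6 labelled SPDEF vector replicate 1 or either mT69a library labelled SPDEF vector, at an adjusted p of up to 0.0863, and in limma fits of log2 TPM (up to 0.199). The matching difference of the median over chromosome 18, which holds Npc1, was -0.56 and -0.61 in these comparisons. For Gramd1b the difference in libraries labelled SPDEF vector against control was -3.02 (SE 0.59, adjusted p = 0.0159), lost without either mT69a control, either mT69a library labelled SPDEF vector or mT6 labelled SPDEF vector replicate 2 (adjusted p of up to 0.0834), and in 2 of the 3 limma fits of log2 TPM (up to 0.0899). Its chromosome 9 had a difference of 0.0025.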

How the results depend on the processing

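Replicate numbers pair the libraries, and the fit with the replicate number as a block moved counts of called members by over 1.5 times in 11 of the 13 comparisons it was run for, as given beside them above. Set against control, the knockout then had 7 called members as a mean of lines (3 without the block), 6 in mT6 (3), 7 in mT69a (3) and 5 for the difference of lines (1). Labelled SPDEF vector against knockout had 11 (3), 5 in mT6 (2) and 5 in mT69a (2), against control it had 10 in mT6 (6), 11 in mT69a (3) and 7 for the difference of lines (2), and the control lines had 21 (13). The mean of labelled SPDEF vector against control had 13 (9).

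With DESeq2 the counts were 5 for the averaged knockout, 5 for the averaged labelled SPDEF vector against knockout, 6 for the knockout in mT69a, and 2 and 1 for the difference of lines in the knockout and in labelled SPDEF vector against knockout. With no count filter the last 2 were again 2 and 1, and labelled SPDEF vector against control had 8 in mT69a. Of 50 calls outside the replicate comparison, 40 were lost in at least 1 limma fit of log2 TPM, and the cause was not tested. On log2(TPM + 1), on log2(TPM + 0.1) and with no filter, the knockout had 1, 1 and 1 as a mean, 0, 0 and 0 in mT6 (3, 4 and 4 at an unadjusted p under 0.05) and 1, 1 and 1 in mT69a. Labelled SPDEF vector against knockout had 1, 1 and 0 in mT6 (the last with 2 at an unadjusted p under 0.05) and 0, 0 and 0 in mT69a (2, 2 and 3 unadjusted). Against control it had 2, 2 and 1 as a mean, 0, 0 and 0 in mT6 (6, 6 and 6 unadjusted), 1 with no filter in mT69a and 1, 0 and 0 for the difference of lines (the last 2 with 3 and 4 unadjusted). The difference of lines in the knockout had 0 with no filter (4 unadjusted), the control lines 7, 7 and 4, and the replicates 5, 5 and 3. In labelled SPDEF vector against knockout in mT69a the median of all genes moved to -0.16 on log2(TPM + 1).

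Between replicates the sign turned in those 3 fits for Hmgcs1 (-0.0106 in each), Nsdhl (-0.0003, -0.0001 and -0.0003), Acaca (-0.0371, -0.0378 and -0.0371) and Stard4 (-0.0158, -0.016 and -0.0158), and the cause was not tested.

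Leaving out each library in turn gave 1 to 4 called members for the averaged knockout, 0 to 3 in mT6, 1 to 4 in mT69a and 1 to 2 for its difference of lines. Labelled SPDEF vector against knockout had 2 to 4, 2 to 2, 1 to 2 and 0 to 0 in the same order, and against control 4 to 8, 3 to 6, 1 to 5 and 0 to 2. The control lines had 9 to 16 and the replicates 7 to 16. Of 66 calls, 28 held in all 12 such fits. A group left with 1 library was assumed to vary like the others. With 2 libraries a group, 6 residual degrees of freedom and a BCV (biological coefficient of variation) of 19.2%, small changes could be missed, and values from either replicate alone give no count of calls.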
